A study of Mus musculus with 6 samples.

Results

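The genes described here encode the enzymes that build purine and pyrimidine nucleotides from small precursors, with the enzymes that turn inosine monophosphate (IMP) toward guanine nucleotides and uridine triphosphate toward cytidine triphosphate. The 10 members were chosen by name (Cad, Dhodh, Umps, Ctps, Ppat, Gart, Paics, Atic, Impdh1 and Impdh2) out of 38293 genes in the deposited table, and each name was found on 1 row. RNA-sequencing was done on 6 lymphomas of C57BL6 mice that all carried the Eμ-Myc transgene, in which the immunoglobulin heavy chain enhancer drives Myc in B lineage cells. The 2 miR-146a-deficient tumors (miR-146a-/-) were both thymic, from mice of 11 and 10 weeks labelled female. The 4 miR-146a-sufficient tumors (miR-146a+/+) were from mice labelled male: replicates 1 and 2 were neck nodes at 18 and 16 weeks, and replicates 3 and 4 were thymic tumors, both at 10 weeks. Each tumor was dispersed to single cells and frozen in Trizol with no sort described, and 2 technical runs of each tumor are combined in 1 value per gene.

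Values were treated as RPKM, in which reads are divided by gene length and by sequencing depth. No header names the unit, so it stays in doubt, and levels of different genes compare only roughly. The table holds no counts; depths estimated roughly from the steps between its lowest values were 36.8% to 100% of that of the deepest tumor, sufficient replicate 2. B lineage markers (Cd79a, Cd79b, Pax5 and 4 others) summed to between 1042 and 1866 RPKM in each of the 6 tumors, mostly from Cd79a and Cd79b. Single markers could differ more. Ms4a1 ran from 31.1 to 361 RPKM, and Ebf1 was 3.67 RPKM in deficient replicate 2, against 9.17 to 15.5 RPKM elsewhere. Cd22 had 86.7 and 105 RPKM in deficient tumors, against 41.1 to 69.9 RPKM in sufficient tumors, and these groups did not overlap, against 11.2% of all genes. Its log2 fold change was 0.96 (limma unadjusted p = 0.00537, adjusted p = 0.893). Between genotypes 3 of the 7 B lineage markers were positive and 4 negative, against 67.6% of all genes positive. In limma 0 of them passed, against 0.0627% of all genes. The labelled sex differs between the genotypes, but Ddx3y, which is Y-linked, stood at 24.6 RPKM in deficient replicate 2, as against 0.130 RPKM in deficient replicate 1 and 17.9 to 23.0 RPKM in the sufficient tumors. Mir146 is listed at 0 in every tumor, so the genotype labels could not be checked from these values. Genotype is crossed with tumor site only in the thymus, and the neck node tumors also came from older mice, so that site and age cannot be told apart. Sufficient replicate 3 stood apart in scale, with a median-ratio size factor of 0.817, against 0.995 to 1.16 in the other tumors, where a size factor is the median over genes of a tumor's value relative to the mean tumor.

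Purine synthesis assembles the ring on a ribose phosphate, step by step, and ends at IMP, which IMPDH enzymes commit to guanine nucleotides. Pyrimidine synthesis makes the ring first and joins it to the ribose phosphate later, ending at UMP, from which the uridine and cytidine nucleotides are made. Growing lymphocytes depend on both routes, and several of these genes are textbook targets of Myc, which binds DNA with Max at E-boxes such as CACGTG. MiR-146a is a microRNA that represses mRNAs by pairing of its seed, bases 2 to 8, with sites mostly in the 3′UTR.

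The microRNA that the deficient mice lack is shown first, since a target paired through its seed would carry the complement of that seed. The mature strand lies at chr11:43374435-43374456 on the minus strand of GRCm38.p6 (RefSeq), and capitals mark the seed.

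mmu-miR-146a-5p: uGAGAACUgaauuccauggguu

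None of the 10 members had a 3′UTR match of at least 7 bases to this seed in GENCODE M21, whereas 19.2% of the 21037 genes with an annotated 3′UTR had one. The E-box CACGTG, which reads the same on both strands, was searched in RefSeq windows from 250 bases before to 50 bases after each start site. Windows were found for 9 of the 10 members, Dhodh being the exception, and those of 3 members held the motif: Atic, Impdh2 and Paics. Of the 27025 genes in that table, 8.09% had a window with the motif. A motif outside the window would not have been found, so members without a match may hold one further from the start. The matches are shown with 10 bases on either side because the tumors are driven by Myc, with capitals for the motif, all on the plus strand.

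Atic: acctcggggtCACGTGgggtcgacac

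Impdh2: gctcgataagCACGTGgttacccagc

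Paics: cctcggaaagCACGTGgagggacctg

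These lie at chr1:71557139-71557164 for Atic, chr9:108560316-108560341 for Impdh2 and chr5:76951089-76951114 for Paics (GRCm38.p6). Paics and Ppat start head to head on chromosome 5, on opposite strands and 276 bases apart, so that the beginnings of their transcripts overlap and the Paics motif lies inside the Ppat gene. A match describes these letters only, and no binding was measured here.

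All 10 members were expressed in all 6 tumors, and 9 of them were above 7.76 RPKM, the median of the mean levels of the 12751 genes tested. Impdh2 had the highest mean over the tumors, 204.0 RPKM, followed by Paics at 138 RPKM. Dhodh had the lowest, 7.40 RPKM. Their summed level was 735 and 618 RPKM in the deficient tumors, against 854, 681, 629 and 713 RPKM in the sufficient ones, and the groups overlapped.

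The comparison of genotypes asked how tumors without miR-146a differ in expression from tumors that retain it. None of the 10 members passed the test, and in each of them the deficient and sufficient tumors overlapped as deposited. The log2 fold changes, deficient minus sufficient, ran from -0.24 for Paics to 0.38 for Impdh1. Of the members 5 were positive and 5 negative, against 67.6% of all genes positive. After median-ratio scaling 3 members were positive, against 48.0% of all genes. Values were compared with limma on log2(RPKM + 1), adjusted by Benjamini-Hochberg over all 12751 genes, and 0.0627% of those genes passed at an adjusted p under 0.05. At an unadjusted p under 0.05 the limma count of members was again 0, against 3.62% of all genes. Groups did not overlap in 0 of the 10 members, against 11.2% of all genes, and after median-ratio scaling in 1, Ppat, against 9.22%. The median over the members was -0.02, against 0.13 over all genes tested, and after median-ratio scaling it was -0.18, against -0.01. Each 95% interval of a member included 0; that of Ppat, for example, ran from -0.47 to 0.50.

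**Figure D1:**
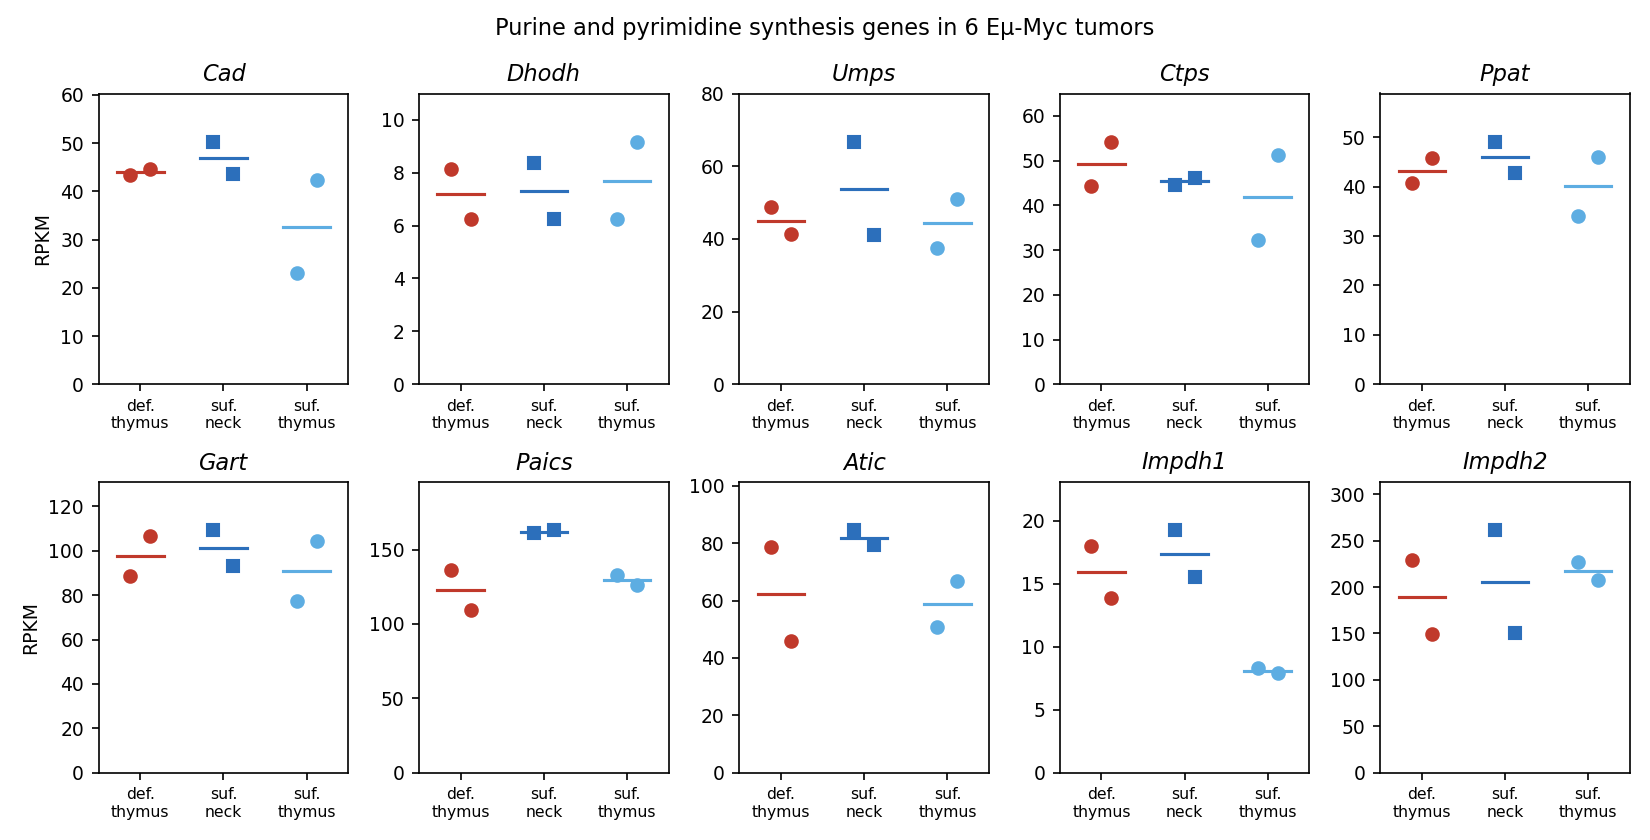
RPKM of each of the 10 genes (vertical axes from 0, a separate scale per gene) in miR-146a-deficient thymic tumors (red circles), miR-146a-sufficient neck node tumors (dark blue squares) and miR-146a-sufficient thymic tumors (light blue circles), 2 tumors per group; lines are group means. The red points overlap the span of the blue points in every panel, and Impdh1 shows the widest gap, with the sufficient thymic tumors at 8.30 and 7.91 RPKM.

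Among the pyrimidine genes, Cad (chr5:31054780-31078479) encodes the multifunctional protein of the opening steps. It had 43.5 and 44.6 RPKM in the deficient tumors, against 50.2, 43.6, 23.1 and 42.3 RPKM in sufficient replicates 1 to 4. The deficient tumors fell inside the range of the sufficient tumors, whose lowest value was that of replicate 3. The log2 fold change was 0.20 ± 0.31 (SE; limma adjusted p = 0.911).

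Dhodh (chr8:109591343-109608673) encodes the mitochondrial enzyme that oxidizes dihydroorotate. Its values were 8.15 and 6.24 RPKM in the deficient tumors, against 8.38, 6.27, 6.23 and 9.16 RPKM in the sufficient tumors. Both groups held a higher and a lower value within the same span, and the log2 fold change was -0.05 ± 0.25 (SE; limma adjusted p = 0.978).

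Umps (chr16:33954782-33967038), whose product completes UMP, had 48.8 and 41.3 RPKM in the deficient tumors, against 66.7, 41.0, 37.6 and 51.0 RPKM in the sufficient tumors. Sufficient replicate 1 alone stood above the other tumors, and the log2 fold change was -0.09 ± 0.26 (SE; limma adjusted p = 0.950).

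Ctps (chr4:120539868-120570276) encodes a CTP synthase. It had 44.3 and 54.2 RPKM in the deficient tumors, against 44.7, 46.0, 32.2 and 51.3 RPKM in the sufficient tumors. Deficient replicate 2 was the highest tumor and sufficient replicate 3 the lowest, and the log2 fold change was 0.19 ± 0.24 (SE; limma adjusted p = 0.900).

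Among the purine genes, Ppat (chr5:76913249-76951578) encodes the enzyme of the committed step. It varied least of the members, with 40.7 and 45.8 RPKM in the deficient tumors, against 49.1, 42.8, 34.2 and 46.1 RPKM in the sufficient tumors. The SD of its log2 level over the 6 tumors was 0.18, and its log2 fold change of 0.02 as deposited became -0.15 after median-ratio scaling and -0.07 after quantile normalization.

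Gart (chr16:91621186-91646952), a trifunctional enzyme of the middle of the pathway, was nearly as even. Gart had 88.5 and 107 RPKM in the deficient tumors, against 109, 93.0, 77.4 and 104 RPKM in those that were sufficient. Its log2 fold change of 0.03 likewise turned to -0.15 after median-ratio scaling and to -0.03 after quantile normalization, so neither Ppat nor Gart had a direction that held across scalings. The level of Gart is uncertain, because 1014 of its 5144 exonic bases in GENCODE M21 lie under exons of the antisense gene Gm15964 and the library kit did not mark strand. Gm15964 was listed at 606 and 1445 RPKM in the deficient tumors, against 421, 799, 380 and 587 RPKM in the sufficient tumors, far above Gart itself, and reads of the pair cannot be told apart where they overlap.

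Paics (chr5:76951307-76967509) encodes a bifunctional enzyme of the later steps. It shares 272 exonic bases with Ppat on the opposite strand, which is 8.67% of those of Paics and 6.15% of those of Ppat. Paics had 136 and 110 RPKM in the deficient tumors, against 161, 163, 133 and 126 RPKM in the sufficient tumors. Both neck node tumors were above the 4 thymic tumors, and among those 4 deficient replicate 1 was the highest and deficient replicate 2 the lowest. The log2 fold change was -0.24 ± 0.22 (SE; limma adjusted p = 0.893).

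Atic (chr1:71557150-71579631) encodes the bifunctional enzyme that closes the ring to IMP. It had 78.8 and 45.8 RPKM in the deficient tumors, against 84.4, 79.4, 50.8 and 66.8 RPKM in the sufficient tumors. The deficient tumors lay near opposite ends of the whole range, and the log2 fold change was -0.20 ± 0.29 (SE; limma adjusted p = 0.909). Without deficient replicate 1 it was -0.58 and without deficient replicate 2 it was 0.19, so its direction rested on which deficient tumor was kept.

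The IMPDH isozymes catalyse the same step, from IMP toward guanine nucleotides. Impdh2 (chr9:108560286-108565584), the form known to be induced in proliferating lymphocytes, had 229 and 149 RPKM in the deficient tumors, against 261, 150, 227 and 208 RPKM in the sufficient tumors. Deficient replicate 2 and sufficient replicate 2 were the low tumors, 1 of each genotype, and the log2 fold change was -0.16 ± 0.29 (SE; limma adjusted p = 0.921). The level of Impdh2 is uncertain, since a pseudogene copy (Gm15210 in the table, Impdh2-ps in GENCODE M21) is 99.7% identical over 1545 aligned bases. Gm15210 was listed at 111 and 69.9 RPKM in the deficient tumors and at 124, 70.4, 109 and 99.0 RPKM in the sufficient tumors. These values were between 46.7% and 48.5% of those of Impdh2 in every tumor, and reads of the gene and its copy cannot be told apart here.

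Impdh1 (chr6:29200434-29216364), the isozyme usually described as constitutive, varied most of the 10 members. It had 18.0 and 13.9 RPKM in the deficient tumors, against 19.2, 15.5, 8.30 and 7.91 RPKM in the sufficient tumors. The 2 sufficient thymic tumors were low, and the other 4 tumors, of both genotypes, were high. The means were 15.9 ± 2.89 RPKM in deficient tumors and 12.7 ± 5.56 RPKM in sufficient tumors (SD, n = 2 and 4). The log2 fold change was 0.38, with a 95% interval of -0.46 to 1.22 (limma adjusted p = 0.893). The SD of its log2 level was 0.51, larger than that of 84.1% of genes tested, whereas 6 of the 10 members had an SD under 0.31, the median of all genes tested.

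**Figure D2:**
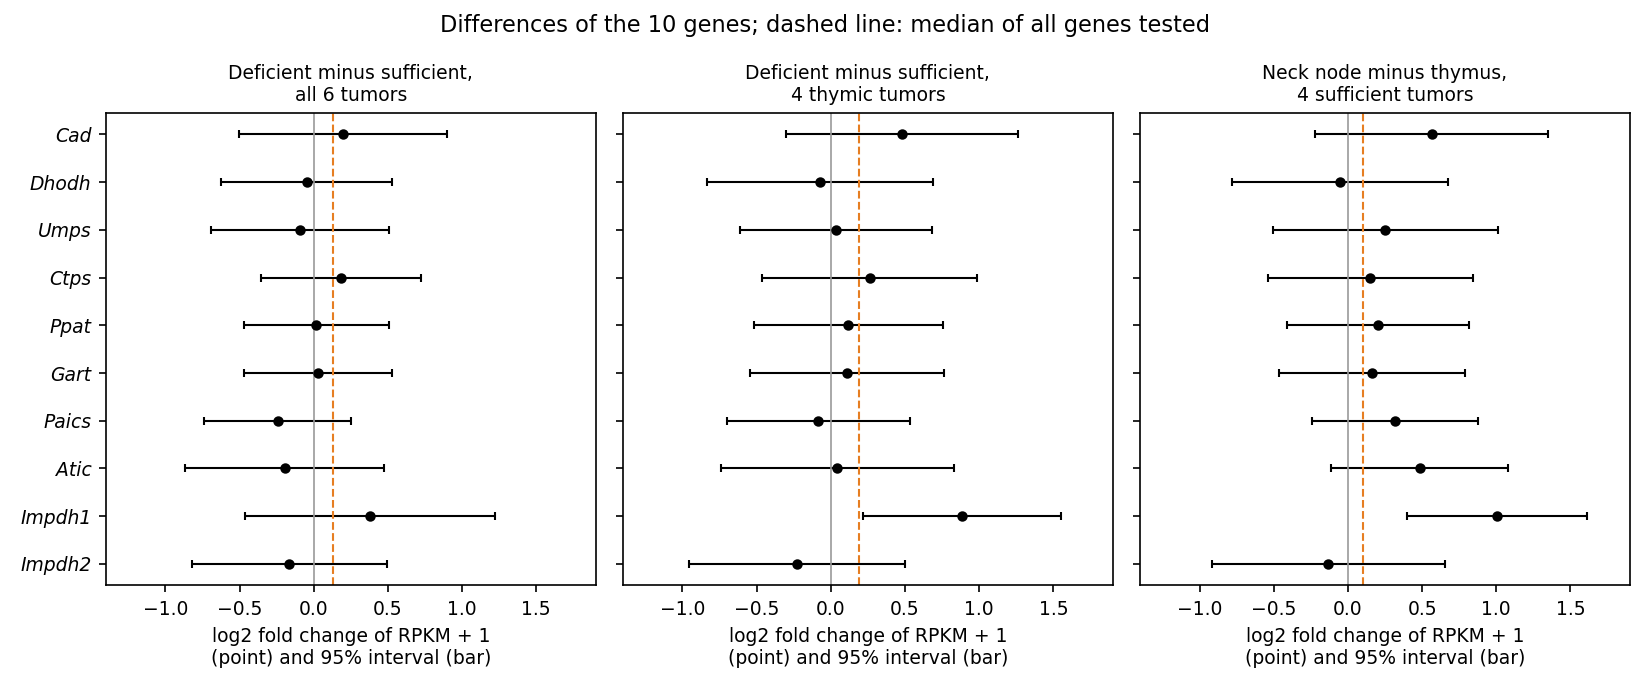
Log2 fold change of RPKM + 1 (points) with its 95% interval (bars) for each gene, for deficient minus sufficient in all 6 tumors (left), the same in the 4 thymic tumors (middle) and neck node minus thymus in the 4 sufficient tumors (right); the grey line is 0 and the dashed line the median of all genes tested. Every interval includes 0 except those of Impdh1 in the middle panel (0.22 to 1.55) and the right panel (0.40 to 1.61); the comparisons share tumors.

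Since both deficient tumors were thymic, genotypes were also compared within the thymus, 2 tumors against 2. Impdh1 was at 18.0 and 13.9 RPKM in the deficient thymic tumors, against 8.30 and 7.91 RPKM in the sufficient thymic tumors, and these groups did not overlap. The log2 fold change was 0.88 ± 0.28 (SE), with an unadjusted p of 0.0164 and an adjusted p of 0.662 by limma, so it did not pass. The limma test in this subset called 0 of the 10 members, against 0.0244% of 12286 genes, and Impdh1 was the 1 member at an unadjusted p under 0.05, a level reached by 7.28% of genes. Groups did not overlap for 2 of the 10 members, Cad and Impdh1, both higher in deficient tumors, against 42.9% of all genes in either direction and 32.5% higher in deficient tumors. After median-ratio scaling Cad overlapped, and Impdh1, higher in deficient tumors, and Ppat and Gart, lower in them, did not, against 38.9% of all genes. For Cad the values were 43.5 and 44.6 RPKM in deficient and 23.1 and 42.3 RPKM in sufficient thymic tumors, a limma log2 fold change of 0.48 with a 95% interval of -0.30 to 1.26.

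With median-ratio scaling added, the thymic difference of Impdh1 was 0.65 (limma unadjusted p = 0.0692). With all 6 tumors and site as a covariate, the fold change of Impdh1 was again 0.88, with a limma adjusted p of 0.545. When the deficient tumors were set against sufficient tumors of the same replicate number, which are the neck node tumors, it was -0.12. The limma interval of that value, -0.64 to 0.40, spans both signs, so it gives no direction. The fold change of Impdh1 therefore differed with the sufficient tumors taken. The neck node tumors also came from older mice, so a part of site cannot be told apart from a part of age.

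The comparison of tumor sites set neck node against thymus within the sufficient genotype. Again 0 of the 10 members passed in limma, against 0.155% of the 12255 genes tested, and 1 member, Impdh1, had an unadjusted p under 0.05, against 7.87% of genes. The log2 fold changes, neck node minus thymus, were positive for 8 members, against 61.0% of all genes, and negative for Dhodh (-0.05) and Impdh2 (-0.13). Their median over the members was 0.23, against 0.10 over all genes. That median was 0.087 after median-ratio scaling, against -0.01 over all genes, and it was 0.014 without sufficient replicate 3, with 5 members positive, and 0.44 without sufficient replicate 4. Groups did not overlap for Cad, Impdh1, Paics and Atic, which is 4 of 10, all higher in neck node, against 40.4% of all genes in either direction and 27.9% higher in neck node. After median-ratio scaling Paics overlapped and 3 members did not, against 39.6% of all genes. This comparison shares the sufficient tumors with the comparisons of genotype, and its values are not independent of them.

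Impdh1 averaged 17.4 ± 2.62 RPKM in neck node tumors and 8.10 ± 0.276 RPKM in sufficient thymic tumors (SD, n = 2 each). Its log2 fold change was 1.01 ± 0.25 (SE), with a 95% interval of 0.40 to 1.61, an unadjusted p of 0.00605 and an adjusted p of 0.508 in limma. It stayed between 0.86 and 1.15 when each tumor was left out in turn, and was 0.87 after median-ratio scaling. Cad averaged 46.9 ± 4.70 RPKM in neck node and 32.7 ± 13.6 RPKM in sufficient thymic tumors (SD, n = 2 each), a log2 fold change of 0.57. That difference rested on sufficient replicate 3, without which it was 0.14.

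Atic averaged 81.9 ± 3.56 RPKM in neck node and 58.8 ± 11.3 RPKM in sufficient thymic tumors (SD, n = 2 each), and the limma log2 fold change was 0.48 with an adjusted p of 0.666. Paics averaged 162 ± 1.38 RPKM in neck node and 130 ± 4.59 RPKM in sufficient thymic tumors (SD, n = 2 each), and the log2 fold change was 0.32 with a limma adjusted p of 0.731. The intervals of Umps, Ctps, Ppat, Gart, Dhodh and Impdh2 included 0, with log2 fold changes of 0.25, 0.15, 0.20, 0.16, -0.05 and -0.13. Neck node and thymic tumors overlapped in each of these 6 genes.

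Markers of other cells moved with site. Neutrophil genes (S100a8, S100a9, Ngp, Camp, Ltf and Elane) summed to 1580 and 1610 RPKM in neck node tumors and to 232 and 200 RPKM in sufficient thymic tumors, and 5 of the 6 passed the limma test. Salivary gland genes (Bpifa2, Smr3a and Amy1) summed to 64.7 and 65.9 RPKM in neck node and 0.310 and 0.539 RPKM in sufficient thymic tumors, and all 3 passed. The deficient tumors had 106 and 268 RPKM of neutrophil genes and 0.215 and 1.13 RPKM of salivary genes. The part of neutrophils and salivary gland tissue in the levels of the members was not tested. Macrophage genes summed to 223 and 268 RPKM in deficient tumors, against 303, 141, 130 and 246 RPKM in sufficient tumors, a sum of which Lyz2 was the larger part. Of the 8 macrophage genes 7 had a positive fold change between genotypes, against 67.6% of all genes. The list median was 0.88, against 0.13 over all genes. Groups did not overlap for Cd68, C1qa, C1qb and C1qc, which is 4 of 8, against 11.2% of all genes. C1qa, a complement component made by macrophages, had 22.9 and 27.7 RPKM in deficient tumors, against 4.92, 4.71, 9.25 and 15.1 RPKM in sufficient tumors. T cell genes summed to 15.7 and 19.6 RPKM in deficient tumors, against 71.6, 22.8, 46.6 and 22.4 RPKM in sufficient tumors. All 8 were negative between genotypes, with a median of -0.72, against 0.13 over all genes. Cd3g and Cd8b1 did not overlap between the groups, against 11.2% of all genes. Erythroid genes summed to 20.5 and 68.0 RPKM in deficient tumors, against 35.9, 302, 221 and 52.7 RPKM in sufficient tumors. Fibroblast genes summed to 8.54 and 20.5 RPKM in deficient tumors, against 3.74, 4.56, 3.03 and 12.5 RPKM in sufficient tumors. The 4 erythroid genes tested were all negative between genotypes and the 4 fibroblast genes tested all positive, against 67.6% of all genes positive. Of the 24 genes tested in these 4 lists 0 passed in limma in either comparison, with 7 at an unadjusted p under 0.05 between genotypes, 4 of them macrophage genes, against 3.62% of all genes, and 2 between sites, against 7.87%, and their part in the levels of the members was not tested. In bulk RNA, a larger number of cells of a type cannot be told apart from more RNA per cell.

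The 13 cycling-cell genes (Mki67, Top2a, Mcm2 and others) summed to 1539 and 1344 RPKM in deficient tumors, against 1712, 1530, 1212 and 1084 RPKM in sufficient replicates 1 to 4. All 13 were positive in neck node minus thymus, with a median log2 fold change of 0.53, but 0 passed the adjusted limma test and 5 had an unadjusted p under 0.05. Over all genes 61.0% were positive, with a median of 0.10, and 7.87% had an unadjusted p under 0.05 in limma. Ordered by Impdh1 and by this sum, the 6 tumors took the same ranks, from sufficient replicate 1 down through deficient 1, sufficient 2, deficient 2 and sufficient 3 to sufficient 4. After median-ratio scaling the order by cycling genes changed, with sufficient replicate 3 at 1484 above deficient replicate 2 at 1163, while scaled Impdh1 was 12.0 in deficient replicate 2 and 10.2 in sufficient replicate 3. The shared order was noticed after the values were seen, and the part of cycling cells in the Impdh1 levels was not tested.

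**Figure D3:**
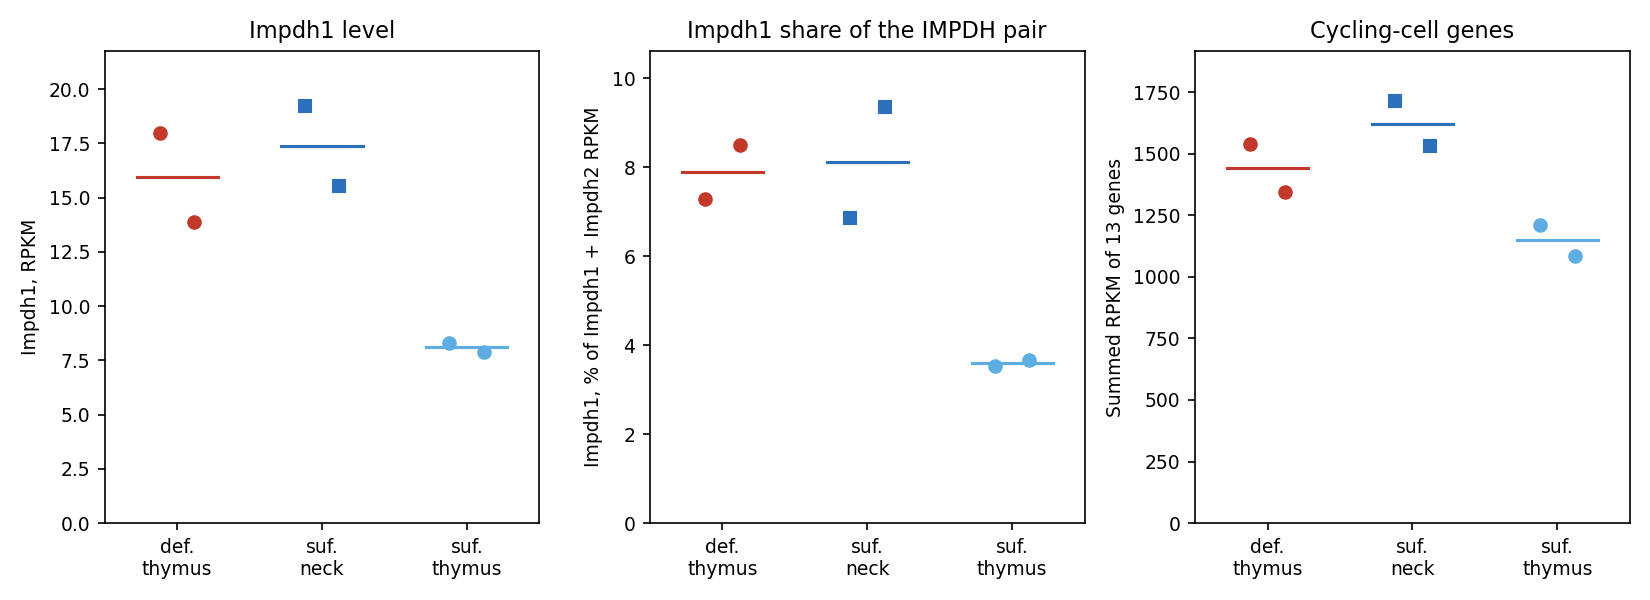
Impdh1 RPKM (left), Impdh1 as a percent of the summed RPKM of Impdh1 and Impdh2 (middle) and the summed RPKM of 13 cycling-cell genes (right), in deficient thymic (red circles), sufficient neck node (dark blue squares) and sufficient thymic tumors (light blue circles); lines are means of 2 tumors and all vertical axes start at 0. The sufficient thymic tumors are lowest in each panel, at 3.53% and 3.67% for the share.

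A ratio of genes within a tumor hardly depends on how tumors are scaled against each other; the ratios are of RPKM and their tests use log2(RPKM + 1). Impdh2 over Impdh1 was 12.7 and 10.8 in the deficient tumors, against 13.6, 9.69, 27.3 and 26.3 in sufficient replicates 1 to 4. The sufficient thymic tumors had the larger ratios, and the deficient and neck node tumors overlapped. The mean log2 ratio differed by -0.55 between deficient and sufficient tumors (exact two-sided permutation p = 0.533). With 2 against 4 tumors, 0.133 is the smallest p that this form of the test can give. The mean log2 ratio differed by -1.11 between deficient and sufficient thymic tumors and by -1.14 between neck node and thymus, contrasts in which 2 against 2 tumors cannot give a p under 0.333.

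Impdh1 made up 7.29% and 8.50% of the summed RPKM of both isozymes in the deficient tumors, against 6.86%, 9.36%, 3.53% and 3.67% in the sufficient tumors. With Gm15210 added to Impdh2, the shares were 5.03% and 5.96% in the deficient tumors, against 4.75%, 6.57%, 2.41% and 2.51% in the sufficient tumors. The order of the tumors was the same with and without the copy, and Impdh1 was the minor isozyme throughout.

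Ctps over Ctps2, the other CTP synthase gene, was 6.46 and 10.3 in the deficient tumors, against 4.22, 7.40, 4.46 and 5.45 in the sufficient tumors. The groups overlapped, and the mean log2 ratio differed by 0.58 (exact two-sided permutation p = 0.267). Paics over Ppat, the head-to-head neighbours, was 3.35 and 2.39 in the deficient tumors, against 3.28, 3.80, 3.89 and 2.74 in the sufficient tumors. Its mean log2 ratio differed by -0.26 (exact two-sided permutation p = 0.4), and the highest of its 6 values was 1.63 times the lowest.

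As deposited, the lowest and highest values of several members fell in the same tumors. Sufficient replicate 3 was the lowest tumor for 6 of the 10 members and sufficient replicate 1 the highest for 7. The shares over all genes were not counted. Sufficient replicate 3 also had the lowest size factor, 0.817, which is taken over genes in general, so these counts are not shown to be particular to the members. After median-ratio scaling, sufficient replicate 3 was the lowest for 2 members and deficient replicate 2 for 6, so the tumor that looked low changed with the scaling. Sufficient replicate 1 was the highest for 6 members after scaling. Cad in sufficient replicate 3 and Impdh1 in sufficient replicate 4 had the lowest values relative to the gene's own mean as deposited, at -0.80 and -0.72 on the log2 scale, and were at -0.50 and -0.74 after scaling.

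**Figure D4:**
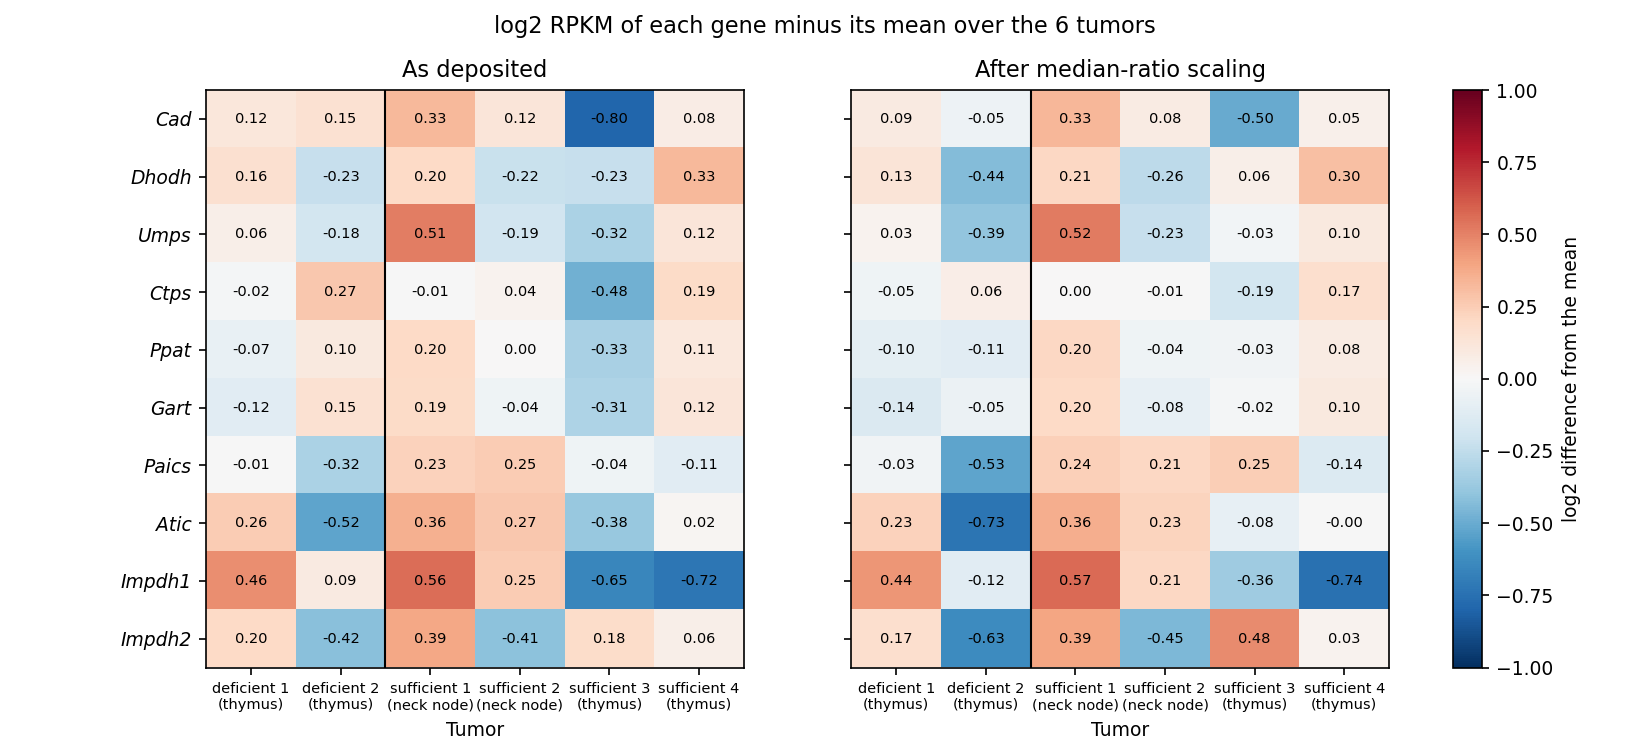
Log2 RPKM of each gene (rows) minus its mean over the 6 tumors (columns, with tumor site), as deposited (left) and after median-ratio scaling (right); red is above and blue below the mean, and a black line parts deficient from sufficient tumors. The column of sufficient replicate 3 is mostly blue at left (Cad -0.80) and paler at right (Cad -0.50), and that of deficient replicate 2 turns bluer (Atic -0.52 at left and -0.73 at right).

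The rest of nucleotide metabolism was described by lists holding 51 further genes, of which 43 passed the filter on low values. None of the 43 passed the limma test between genotypes or had an unadjusted p under 0.05, against 0.0627% and 3.62% of all genes. Of the 43, 25 were positive and 18 negative, with a median of 0.08. Over all genes tested 67.6% were positive, with a median of 0.13, and 48.0% were positive after median-ratio scaling. Groups did not overlap for 4 of the 43, against the 11.2% given above. Between sites 0 of 42 passed, and Pfas alone, an enzyme of the middle of purine synthesis, had an unadjusted p under 0.05 in limma (0.66 ± 0.26 SE, neck node minus thymus, adjusted p = 0.618). Over all genes 0.155% passed between sites and 7.87% had an unadjusted p under 0.05.

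In the rest of purine synthesis, 5 of 7 genes were positive and 2 negative between genotypes, against 67.6% of all genes positive. Prps1, which makes the activated ribose phosphate, had the highest level, at 70.3 and 71.7 RPKM in deficient tumors, against 58.5 to 84.7 RPKM in sufficient tumors. Gmps, which follows IMPDH on the way to GMP, had the largest positive fold change, 0.40. Its values were 11.6 and 22.9 RPKM in deficient tumors, against 12.5, 10.1, 11.1 and 15.5 RPKM in sufficient tumors, so it was high in deficient replicate 2 and not in deficient replicate 1. Prps2, the other ribose phosphate activating gene, had the most negative, -0.21. Ctps2 averaged 6.05 ± 1.13 RPKM in deficient tumors and 8.36 ± 1.99 RPKM in sufficient tumors (SD, n = 2 and 4), a log2 fold change of -0.39.

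Salvage enzymes rebuild nucleotides from free bases and nucleosides, and 7 of the 11 tested were positive, against 67.6% of all genes. Hprt, which salvages hypoxanthine and guanine, was the highest, at 232 ± 19.5 RPKM in deficient tumors and 220.2 ± 24.2 RPKM in sufficient tumors (SD, n = 2 and 4). Uckl1, a uridine kinase-like gene, had 5.20 and 4.79 RPKM in deficient tumors, against 3.76, 3.69, 3.76 and 2.76 RPKM in sufficient tumors. These groups did not overlap as deposited but did after median-ratio scaling, and the log2 fold change was 0.42 ± 0.23 (SE; limma adjusted p = 0.893). Dck, the deoxycytidine kinase, had 36.8 and 26.4 RPKM in deficient tumors, against 47.8, 34.9, 36.7 and 66.0 RPKM in sufficient tumors, a log2 fold change of -0.51.

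Of the genes for ribonucleotide reduction and thymidylate, 7 of 9 were positive between genotypes. The share over all genes, for this list and those that follow, was 67.6%. Rrm1, the large subunit of ribonucleotide reductase, was the highest, at 113 and 98.1 RPKM in deficient tumors, against 133, 110, 95.0 and 51.2 RPKM in sufficient tumors. Dctd, a deoxycytidylate deaminase, had a log2 fold change of 0.53 and Rrm2b, the p53-inducible small subunit, one of -0.50. Among nucleoside mono- and diphosphate kinases, 2 of 7 were positive; Nme2 was both the highest and the most negative (-0.48), and Cmpk2 the most positive (0.18). Among breakdown enzymes, 4 of 8 were positive, with Nt5c the highest (64.5 ± 3.87 RPKM in deficient tumors and 54.6 ± 10.0 RPKM in sufficient tumors; SD, n = 2 and 4), Xdh the most positive (0.42) and Nt5e the most negative (-0.77). Every fold change between genotypes named from these lists, Uckl1 included, had a limma adjusted p of 0.893 or more.

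Myc, from the transgene and the endogenous gene together, had 451 and 909 RPKM in deficient tumors, against 348, 472, 237 and 516 RPKM in sufficient tumors. Deficient replicate 2 was the highest and sufficient replicate 3 the lowest, and the log2 fold change was 0.77 ± 0.40 (SE; limma adjusted p = 0.893). Deficient replicate 2, with the most Myc RNA, had the lowest sum of the 10 members, at 618 RPKM. Sufficient replicate 3, with the least Myc RNA, had the next lowest, at 629 RPKM. After median-ratio scaling these sums were 535 and 771 RPKM. The part of Myc in the levels of the members was not tested.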

How the data were processed

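RNA of 6 tumors was compared: 2 miR-146a-deficient and 4 miR-146a-sufficient, grouped by the labelled genotype. The authors used STAR 2.3.0 for alignment to GRCm38 and HTSeq 0.5.4p3 for counts per gene, scaled the counts by a geometric mean over samples, and tested with DESeq (1.12.1 per the labels; the methods give another version); the kit did not mark strand. The deposited values, 1 per gene and tumor, were treated as RPKM as made by the authors, although no header names the unit; how gene length entered them is not given in the sources used here. Multiplied by exon lengths of GENCODE M21, they summed to between 1.76 and 2.06 times the expected total per tumor without Xist. With Xist, deficient replicate 1 came to 24.1 times that total, so its Xist value is not plausible as RPKM. The unit therefore stays in doubt, and levels of different genes compare only roughly. No counts are held, so no count model was run. Steps between the lowest values gave rough depths of 36.8% to 100% of the deepest tumor. From these, each member was roughly estimated to rest on 622 reads or more in every tumor. Of the low-value pairs used for the depths, 34.4% lay within 1% of a predicted ratio. The scale that turns values into reads had an interquartile range of 37.2% of its median, so the read numbers are approximate. The estimate of reads covers counting error only, and the spread between tumors was the error used.

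Genes with at least 0.5 RPKM in at least 2 tumors were kept (12751 of 38293). Log2(RPKM + 1) was tested with limma 3.58.1 (with trend) in R 4.3.3, with Benjamini-Hochberg adjustment over all genes kept and a threshold of 0.05; fold changes on this scale understate those of low genes. Ratios were tested as differences of log2(RPKM + 1) by exact permutation over 15 splits with SciPy 1.17.1. The labels list each tumor as its own sample, and the technical runs were already combined. Alternatives changed the filter, pseudocount, scaling, prior, tumors, site covariate and replicate block, and left out each tumor. Scripts were tested on simulated data.

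The members, the gene lists and the markers (B lineage, macrophage, T cell, neutrophil, erythroid, fibroblast, salivary gland and cycling) were chosen with earlier results of these data known. A planned B lineage marker is not reported here. From each pathway list the genes past the threshold were to be named, and otherwise the highest gene and those with the largest positive and negative fold change between genotypes. Uck2 and Ebf1 each stand on more than 1 row, and the row with the larger sum was used. Gene positions are from GENCODE M21, and the microRNA, start sites and windows from RefSeq tables, both on GRCm38 and newer than the annotation behind the values. Copies of the members were sought by aligning their transcripts.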

Additional observations from a re-analysis of the deposited data

How the results depend on the processing

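In limma, 0 of the 10 members passed under each of 17 alternatives between genotypes and 12 between sites, the lowest adjusted p being 0.545 and 0.417. Of all genes, 8 passed between genotypes: 3 passed with thymic tumors only, 3 with the site covariate, 1 in the replicate block fit, 0 with thymic tumors and median-ratio scaling (chosen after seeing the data; 766 at an unadjusted p under 0.05), and 4 to 9 when each tumor was left out (4 without sufficient replicate 3, and 5 without either deficient tumor). Between sites 19 passed: 0 with no filter (1388 at an unadjusted p under 0.05), 11 after quantile normalization, 2 with all 6 tumors and genotype as a covariate, and 11 to 67 when each tumor was left out (32, 67 and 11 without sufficient replicates 1, 2 and 4). Between genotypes, signs of log2 fold changes turned as follows. With thymic tumors only and with the site covariate, Umps became 0.034 and Atic 0.044. With the replicate block, Cad became -0.086, Impdh1 -0.12, Ppat -0.084 and Gart -0.053. With median-ratio scaling Ppat became -0.15 and Gart -0.15, with quantile normalization -0.072 and -0.027, and with thymic tumors and median-ratio scaling -0.13 and -0.14. The causes were not tested. With each tumor left out, Cad ran from -0.038 to 0.32, Dhodh from -0.22 to 0.12, Umps from -0.21 to 0.065, Impdh2 from -0.47 to 0.14, Ppat from -0.087 to 0.10, Gart from -0.10 to 0.16 and Atic from -0.58 to 0.19. Between sites, Dhodh ran from -0.30 to 0.19, Umps from -0.092 to 0.60, Ctps from -0.18 to 0.48, Impdh2 from -0.53 to 0.26, Ppat from -0.0081 to 0.41 and Gart from -0.050 to 0.38. Of those that kept their sign, between genotypes Ctps ran from 0.043 (without deficient replicate 2) to 0.33 (without deficient replicate 1), Paics from -0.40 (without deficient replicate 1) to -0.089 (without deficient replicate 2) and Impdh1 from 0.20 (without sufficient replicate 4) to 0.60 (without sufficient replicate 1). The log2 ratio of Paics over Ppat ran from -0.50 to -0.022 and that of Ctps over Ctps2 from 0.27 to 0.89 (without deficient replicates 1 and 2 at either end), and that of Impdh2 over Impdh1 from -0.82 (without sufficient replicate 2) to -0.35 (without sufficient replicate 3).

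The labels name no shared litter or batch, so the replicate numbers were not taken to pair tumors. With 2 pairs, deviations of same-numbered tumors correlated at 0.02 and 0.21. These values cannot decide on pairing, because deviations of 2 deficient tumors from their own mean mirror each other. A lone deficient tumor in a fit is assumed to vary like the sufficient tumors, and for the ratios it gave a value with no test. DESeq2, planned for counts, was not run. The counting error, roughly estimated at 4.01% for the shallowest value of Impdh1, is small beside the spread between tumors.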
